A study of Homo sapiens with 9 samples.

Results

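The zinc finger (ZNF) genes of human chromosome 19 were measured in PC9 cells, a line derived from a human lung adenocarcinoma with mutant EGFR. Chromosome 19 genes whose symbol is ZNF followed by a number and at most 1 letter were taken, with the coding transcript of highest mean for each, which gave 246 genes of the 20442 in the file. For comparison, 264 ZNF genes lay on other chromosomes, and 757 chromosome 19 genes with other names had a coding span of similar length (4.25 to 37.5 kb). The treated libraries came from cells kept for 28 days in 500 nM osimertinib, an inhibitor of mutant EGFR, and sorted into G1 (clones 1 and 7), S (clone 1) and G2 (clone 1). The untreated libraries, called day 0, held G1 and S cells of both clones and G2 cells of clone 1. All 9 carried the FUCCI4 cell cycle reporter, and all cells were fixed with glyoxal, permeabilised with saponin and sorted before strand-specific sequencing of polyadenylated RNA. S and G2 at day 28 and G2 at day 0 were represented by 1 library each. No label says whether the libraries of a clone were cultured apart, so the p-values measure the spread between these libraries.

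Most chromosome 19 ZNF proteins are KRAB zinc finger proteins. A tandem array of C2H2 fingers, each holding a zinc ion between cysteines and histidines, reads a DNA sequence, and the KRAB domain at the other end recruits TRIM28 (KAP1), which brings in the histone methyltransferase SETDB1, heterochromatin protein 1 and histone deacetylases. Many members bind transposable elements and keep them silent. The genes multiplied by tandem duplication during primate and mammalian evolution, so neighbours in a cluster tend to be related in sequence. A KRAB motif was found in the coding transcripts of 211 of the 246 genes, and the median gene encoded 12 C2H2 finger motifs (range 0 to 36).

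The values count reads over the span from start to stop codon, introns included, on the strand of the gene. They mix spliced and unspliced RNA, and a fold change here is one of reads over the span. The median span was 14.5 kb, and 19.4% of the median span was exonic. Reads were recovered from the deposited values. Summed over 1 coding span per gene they came to 30.5 M to 43.1 M at day 28 and 8.83 M to 108.7 M at day 0 (M for mega). These sums average more than the reads per sample given in the labels, and why was not tested. Read counts below are such recovered reads. The 414 olfactory receptor genes, used as a measure of background, held 0.00779 to 0.0261 reads per kb of span per M reads in the day 28 libraries and 0.00110 to 0.00459 in the day 0 libraries. Among the 208 chromosome 19 ZNF genes with enough reads to be tested, the median stood well above that background. It was 0.810 to 1.13 such reads at day 28 and 0.309 to 0.458 at day 0. The 38 genes with fewer reads are not in this median. All 5 epithelial markers (EPCAM, KRT8, KRT18, KRT19 and CDH1) were detected in every library and took 0.897% to 1.53% of reads at day 28 and 1.38% to 2.20% at day 0. The 5 leukocyte markers summed to at most 0.000221% of reads, with 28 to 95 reads in the day 28 libraries and 0 to 12 at day 0. The 5 fibroblast and endothelial markers took 0.00159% to 0.00482% of reads at day 28 and 0.00187% to 0.00261% at day 0, mostly from COL1A1. In sorted bulk cells, a change in the share of cells that express a gene and a change in its RNA per cell cannot be told apart.

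Of the 246 genes, 208 had enough reads to be tested. The minimum was a mean over all 9 libraries of what 10 reads are worth in the library of lowest depth. A gene low at day 0 could thus pass through its day 28 values. At day 28, 105 of the 208 rose while 4 fell (limma, adjusted p under 0.05 over all genes tested), while 99 passed in neither direction. Over all 12391 genes tested, 28.6% were called higher and 26.6% lower. The median log2 fold change of the 208 was 0.76, with the middle of the distribution between 0.29 and 1.22 and the extremes at -1.47 and 4.29, and 175 lay above 0. Of the 105 that rose, 76 did so by at least 2-fold and 95 were higher at day 28 in each of the 4 pairs matched for phase and clone. When each of the 9 libraries was left out in turn, 68 of the 105 were called higher every time, and the count of genes called higher lay between 75 and 101.

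The libraries themselves separated by day. Reads in the 246 genes made up 0.530% (G1 clone 1), 0.401% (G1 clone 7), 0.381% (S) and 0.374% (G2) of all reads at day 28. At day 0 they made up 0.209% (G1 clone 1), 0.174% (G1 clone 7), 0.213% (S clone 1), 0.146% (S clone 7) and 0.189% (G2). The lowest day 28 library thus lay above the highest day 0 library. Gene by gene, 78 of the 208 had all 4 day 28 values above all 5 day 0 values, and 3 had them all below, where 20.9% and 18.9% of all genes tested did. The median difference between matched libraries was 0.98 in G1 clone 1 (173 of 208 higher), 0.56 in G1 clone 7 (150 higher), 0.73 in S (163 higher) and 0.54 in G2 (155 higher).

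ZNF genes elsewhere in the genome also rose more often than they fell, and other genes of chromosome 19 fell more often. Of 211 ZNF genes tested on other chromosomes, 87 rose, 11 fell and the median was 0.55. Their share of reads was 0.522% to 0.642% at day 28 and 0.283% to 0.328% at day 0. Of 495 chromosome 19 genes of similar span, 110 rose, 157 fell and the median was -0.23, and the median of all genes tested was 0.01. The difference between these medians was not tested. Under quantile scaling, which forces all libraries to 1 distribution, the median of all genes moved to -0.11, and 68 chromosome 19 ZNF genes were called higher and 12 lower, with a median of 0.39. In that fit 24.2% of all genes were called higher and 27.4% lower.

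**Figure D1:**
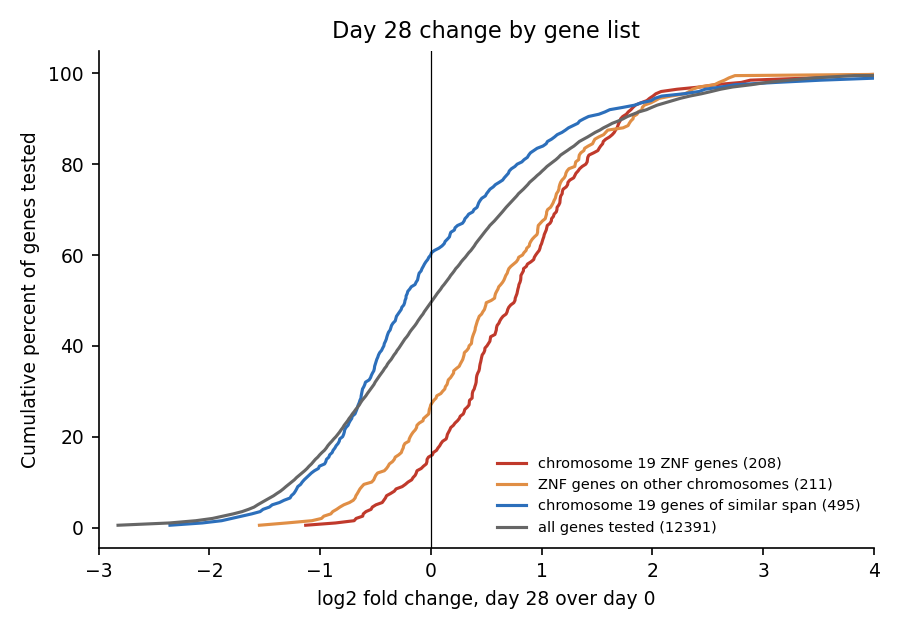
Cumulative percent of genes tested (vertical axis) against the log2 fold change of day 28 over day 0 (horizontal axis) for the chromosome 19 ZNF genes (208), ZNF genes on other chromosomes (211), chromosome 19 genes of similar span (495) and all genes tested (12391). The ZNF curves lie to the right, with medians of 0.76 and 0.55, against -0.23 for chromosome 19 genes of similar span and 0.01 for all genes.

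The genes with the steepest rise were KRAB zinc finger genes of the chromosome's short arm and of the cluster near the centromere. ZNF69 (ENSG00000198429, chromosome 19, 11887924 to 11913410, plus strand), which encodes 13 finger motifs, stood at day 28 at 10.80 in G1 of clone 1, 9.77 in G1 of clone 7, 9.21 in S and 9.51 in G2, on the log2(normalised reads + 1) scale. At day 0 it stood at 6.06 (G1 clone 1), 4.74 (G1 clone 7), 6.49 (S clone 1), 3.00 (S clone 7) and 6.66 (G2). All day 28 values lay above all day 0 values, although the lowest day 0 libraries, both of clone 7, held 2 reads each. Its log2 fold change was 4.29 ± 0.73 (SE), or 19.5-fold (limma adjusted p = 0.000636), and with clone 1 alone it was 3.44.

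ZNF709 (ENSG00000242852, 12465609 to 12513833, minus strand, 19 finger motifs) followed at 9.94, 10.32, 8.41 and 8.59 at day 28 in the G1 libraries of clones 1 and 7, in S and in G2. At day 0 it lay between 5.31 and 5.84 in all 5 libraries. The fold change was 3.68 ± 0.50 (limma adjusted p = 0.000201), but other annotated genes of the same strand cover 100% of its span, so its reads could belong to them. Every day 0 value of ZNF709 and of ZNF69 lay below the minimum mean for testing, 7.01 on the log2 scale. Both were therefore tested only through their day 28 values. ZNF441 (ENSG00000197044, 11767194 to 11781906, plus strand) had 10.90, 10.61, 9.83 and 9.42 at day 28 in the same order, against 6.93 to 7.60 at day 0. No coding span of the same strand overlaps it, and it rose by 2.89 ± 0.36 (limma adjusted p = 0.000128).

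ZNF44 (ENSG00000197857, 12242808 to 12294694, minus strand) had the highest reads per kb of these 4. It averaged 12.88 ± 0.97 (SD, n = 4) at day 28 and 9.91 ± 0.49 (SD, n = 5) at day 0, or 2.02 and 0.183 reads per kb per M, and rose by 2.84 ± 0.28 (SE, limma adjusted p = 3.93e-05). Its G1 libraries at day 28, 13.63 and 13.81, lay above its S and G2 libraries, 12.06 and 12.02. ZNF433 (12014845 to 12035539) rose by 2.48 ± 0.53, or by 1.72 with clone 1 alone, with 83.5% of its span covered by another annotated gene of the same strand.

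All 5 genes lie in 1 cluster. To show the elements that recur before the start sites in it, the 200 bases upstream of the annotated start of ZNF69, ZNF441, ZNF433 and ZNF44 are given 5′ to 3′ on the strand of each gene, from RefSeq promoters of GRCh38.p14, together with ZNF682 of the cluster near the centromere and ZNF576, the gene that fell most. Capitals mark CCAAT, the core bound by NF-Y, GGGCGG, the GC box core bound by SP factors, and CCGGAAG, an ETS core, each on either strand.
ZNF69 (chr19:11887582-11887781, + strand): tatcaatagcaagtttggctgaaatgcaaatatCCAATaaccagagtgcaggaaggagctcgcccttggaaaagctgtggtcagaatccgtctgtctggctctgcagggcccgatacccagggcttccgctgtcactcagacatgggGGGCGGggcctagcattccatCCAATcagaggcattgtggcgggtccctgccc
ZNF441 (chr19:11766800-11766999, + strand): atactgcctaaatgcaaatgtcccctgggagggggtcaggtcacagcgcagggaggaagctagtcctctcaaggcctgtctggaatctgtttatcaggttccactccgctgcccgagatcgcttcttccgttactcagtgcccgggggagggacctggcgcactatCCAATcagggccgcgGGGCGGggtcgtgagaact
ZNF433 (chr19:12035680-12035879, - strand): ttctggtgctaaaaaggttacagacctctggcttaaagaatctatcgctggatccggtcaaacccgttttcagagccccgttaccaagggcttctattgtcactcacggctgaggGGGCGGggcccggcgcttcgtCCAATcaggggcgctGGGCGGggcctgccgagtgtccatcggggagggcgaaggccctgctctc
ZNF44 (chr19:12294884-12295083, - strand): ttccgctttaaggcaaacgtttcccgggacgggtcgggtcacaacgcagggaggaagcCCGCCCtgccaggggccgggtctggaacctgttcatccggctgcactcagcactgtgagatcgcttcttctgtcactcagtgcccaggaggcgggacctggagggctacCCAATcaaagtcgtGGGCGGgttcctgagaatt
ZNF682 (chr19:20039506-20039705, - strand): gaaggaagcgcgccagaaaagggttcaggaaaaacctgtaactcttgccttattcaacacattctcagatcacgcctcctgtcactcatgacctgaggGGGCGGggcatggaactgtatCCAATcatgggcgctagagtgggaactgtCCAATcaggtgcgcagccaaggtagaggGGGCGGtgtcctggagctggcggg
ZNF576 (chr19:43596192-43596391, + strand): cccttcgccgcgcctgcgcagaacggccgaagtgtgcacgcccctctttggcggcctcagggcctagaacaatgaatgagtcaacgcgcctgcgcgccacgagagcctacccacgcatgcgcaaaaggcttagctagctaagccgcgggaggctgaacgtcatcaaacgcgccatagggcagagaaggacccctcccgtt
In ZNF441, ZNF433 and ZNF44 a CCAATCA stretch stands close to the start site with a GC box downstream of it, while in ZNF69 a GC box stands upstream of it. ZNF682 carries both elements in duplicate, and ZNF576 has none of the 3 motifs in this stretch.

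The same elements were counted in the 300-base windows (250 before to 50 after the start) that RefSeq gave for 216 of the 246 genes. In 5 of the 216, ZNF709 among them, the annotated start lies inside the coding span whose reads are reported, so the window does not precede that transcript. In the cluster of ZNF69, CCAAT was in 22 of 24 windows, against 53.7% of all chromosome 19 ZNF windows and 36.9% of windows of genes tested. GGGCGG was in 23 of the 24, against 67.6% of chromosome 19 ZNF windows and 70.9% of those of genes tested. CCGGAAG was in 2 of 24, against 45.4% of chromosome 19 ZNF windows and 20.2% of those of genes tested. The 12-base stretch ccaatcaggggc, picked after the sequences were seen as the commonest in that cluster, was in 11 of its 24 windows and in 23 of all 27305 windows on either strand. Among tested chromosome 19 ZNF genes with a window, 58 rose and 0 fell of 102 with CCAAT, with a median of 0.82, and 37 rose and 4 fell of 85 without it, with a median of 0.63. These counts include the cluster of ZNF69, where nearly all windows hold CCAAT and all 20 tested genes rose. They were not taken without that cluster, so motif and cluster cannot be told apart here. Over all genes tested, with any window or none, 28.6% rose and 26.6% fell. With CCGGAAG the counts were 48 rising and 1 falling of 87, and without it 47 and 3 of 100. With GGGCGG they were 63 and 2 of 123, and without it 32 and 2 of 64, with medians of 0.77 and 0.73. A match is a description of letters in the window, and binding was not measured.

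Beyond that cluster, ZNF676 (ENSG00000196109, 22179950 to 22215634, minus strand) had 11.01 and 9.93 in G1 clones 1 and 7, 8.76 in S and 9.34 in G2 at day 28, against 3.00 to 7.87 at day 0. It rose 11.3-fold (log2 SE 0.78, limma adjusted p = 0.00319), with 2 and 3 reads in the clone 7 libraries of day 0. The mean of its day 0 values lay below the minimum mean for testing, 7.01, so ZNF676 too was tested only through its day 28 values. With clone 1 alone its log2 fold change was 2.47. ZNF682 (ENSG00000197124, 19997241 to 20039345, minus strand) averaged 12.78 ± 0.30 (SD, n = 4) at day 28 and 10.17 ± 0.33 (SD, n = 5) at day 0. Its SD at day 28 was the smallest among the 8 steepest, and it rose by 2.59 ± 0.24 (SE, limma adjusted p = 3.02e-05), or 6.02-fold. ZNF493 (21397238 to 21424984) rose by 2.26 ± 0.30, with 71.5% of its span shared with another annotated gene of the same strand.

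Members known for the elements they silence were looked at whatever their result. ZNF91, which represses SVA retrotransposons, encodes 31 finger motifs and averaged 13.04 ± 0.59 (SD, n = 4) at day 28 and 11.11 ± 0.59 (SD, n = 5) at day 0. It rose by 1.80 ± 0.27 (SE, limma adjusted p = 0.000295), and its lowest day 28 value, 12.40, lay above its highest day 0 value, 11.89. ZNF93, its relative that binds LINE-1 elements, stood at 10.28, 9.64, 10.63 and 10.92 at day 28 and at 8.55 to 10.14 at day 0. The days overlapped, and the fold change of 0.77 ± 0.36 did not pass (limma adjusted p = 0.0850).

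ZNF417 and ZNF587, a closely related pair that silences HERV-K elements, stood at 1.42 ± 0.26 and 1.05 ± 0.34 (limma adjusted p = 0.00109 and 0.0217). The pair shares 49.9% and 54.7% of its coding 75-base stretches with genes elsewhere, and other genes of the same strand cover 99.4% and 87.8% of the spans, so both values are uncertain. The call of ZNF587 ended without Day 28 G1 clone 1 (1.01), without Day 28 G1 clone 7 (0.94), without Day 28 S (1.05) and under quantile scaling (0.50). ZNF274, which brings SETDB1 to the 3′ ends of other ZNF genes, averaged 13.19 ± 0.46 (SD, n = 4) at day 28 and 12.02 ± 0.23 (SD, n = 5) at day 0 and rose by 1.14 ± 0.19 (SE, limma adjusted p = 0.000617). Read over its coding span of highest exonic share instead, ZNF274 stood at -0.93 ± 0.50 (limma adjusted p = 0.140). ZNF331, an imprinted gene, had 12.05, 10.82, 12.50 and 12.90 at day 28 and 9.27 to 11.29 at day 0, and rose by 1.67 ± 0.31 (limma adjusted p = 0.00108). Only its clone 7 G1 value at day 28 lay within the day 0 range.

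**Figure D2:**
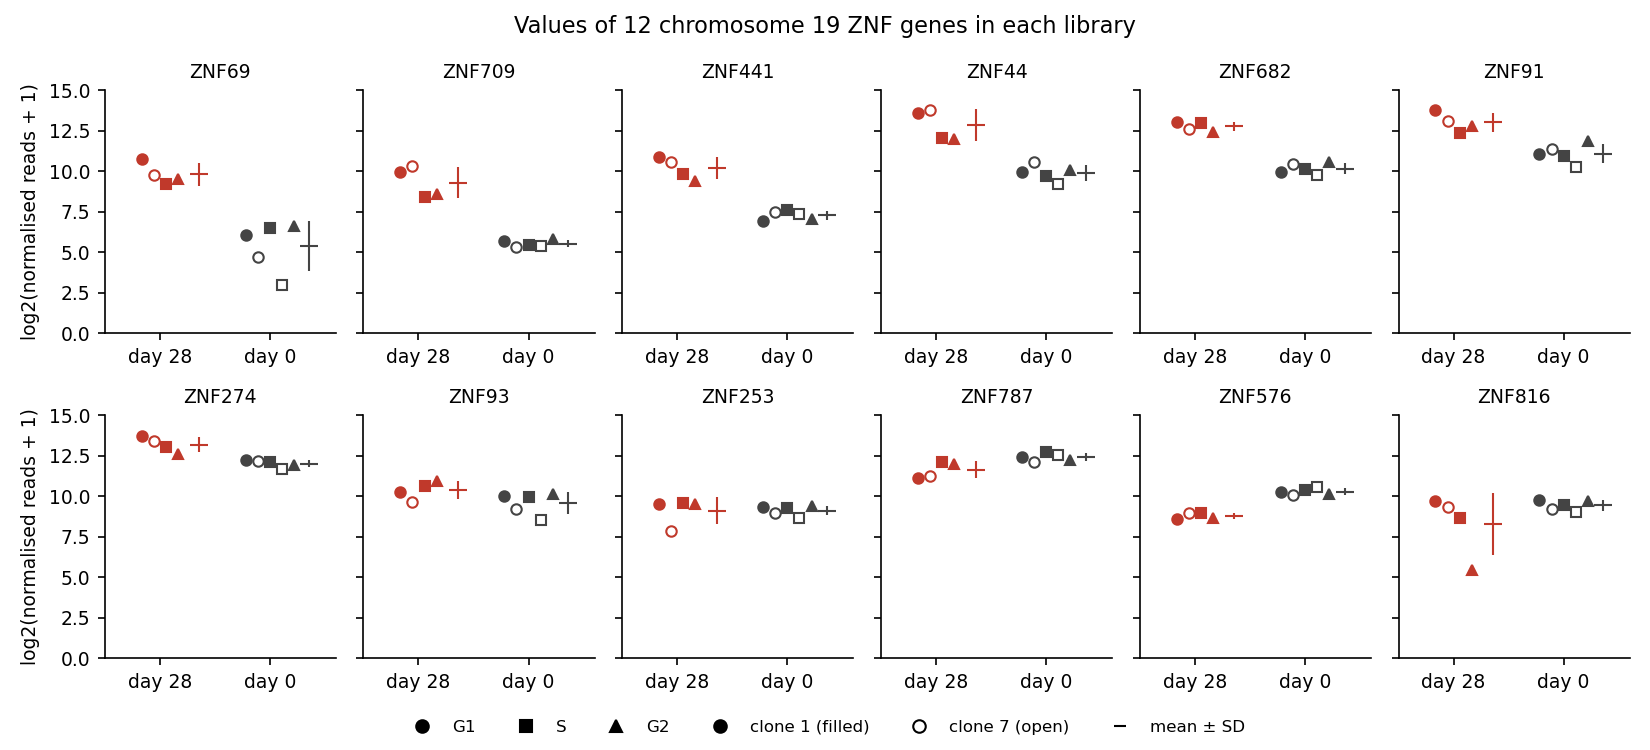
Values on the log2(normalised reads + 1) scale of 12 chromosome 19 ZNF genes (panels) in the 4 day 28 and 5 day 0 libraries. Circles, squares and triangles mark G1, S and G2, filled symbols clone 1 and open symbols clone 7, and the bar beside them the mean ± SD; ZNF69, ZNF709, ZNF441, ZNF44, ZNF682, ZNF91 and ZNF274 lie higher at day 28 in every library, ZNF576 and ZNF787 have lower means, and ZNF816 has 1 low library (5.47, day 28 G2).

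The 4 genes that fell were ZNF576, ZNF787, ZNF146 and ZNF71, and the motif search found no KRAB box in the first 3. ZNF576 (ENSG00000124444, 43597109 to 43599258, plus strand, 4 finger motifs) had 8.57, 8.94, 8.94 and 8.64 at day 28 in G1 (clones 1 and 7), S and G2, against 10.28, 10.05, 10.38, 10.60 and 10.13 at day 0. The groups lay apart, with a fold change of -1.47 ± 0.25 (limma adjusted p = 0.000605). ZNF787 (56088023 to 56103217) averaged 11.63 ± 0.52 (SD, n = 4) at day 28 and 12.40 ± 0.26 (SD, n = 5) at day 0 and changed by -0.69 ± 0.20 (SE, limma adjusted p = 0.0132). In its matched pairs the fall was larger in G1 than in S or G2, and the highest day 28 value, 12.13 in S, lay above the lowest day 0 value, 12.09.

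ZNF146, made of fingers without a KRAB domain and contained in 1 coding exon whose whole span lies opposite ZNF565, averaged 10.91 ± 0.33 (SD, n = 4) at day 28 and 11.53 ± 0.19 (SD, n = 5) at day 0, with a fold change of -0.62 ± 0.21 (SE, limma adjusted p = 0.0283). Its call ended without Day 0 G1 clone 7 (-0.59), without Day 0 S clone 1 (-0.55), without Day 28 G1 clone 7 (-0.51) and without Day 28 S (-0.53), and with clone 1 alone (-0.54). After trends with span and exonic length were removed it stood at -0.12 (limma adjusted p = 0.659). ZNF71, named after its value was seen, stood at -0.87 ± 0.33 (limma adjusted p = 0.0410), with 1 of 4 pairs higher at day 28 and its whole span within another annotated gene of the same strand. It lost its call in 7 of the 9 fits without 1 library (-0.93 to -0.65), all but those without Day 0 G2 and without Day 28 G2, after background subtraction, with no filter, with clone 1 alone, and after removal of length trends (-0.72, limma adjusted p = 0.0819). At the other end of the scale of change, ZNF253, ZNF525 and ZNF57 lay nearest to 0, at 0.01 ± 0.39, 0.02 ± 0.38 and -0.02 ± 0.28.

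Per kb of span the most abundant members at day 0 were ZNF358, ZNF146 and ZNF581. ZNF358 had 75.6 reads per kb per M at day 28 and 40.1 at day 0, ZNF146 25.8 and 32.6, and ZNF581 18.5 and 23.5. All 3 spans are 100% exonic. ZNF358 rose by 0.64 ± 0.22 (limma adjusted p = 0.0255), a call that ended without Day 0 G1 clone 7 (0.49), without Day 0 G2 (0.55), without Day 28 G1 clone 7 (0.57) and without Day 28 G2 (0.55). ZNF581 stood at -0.52 ± 0.28 (limma adjusted p = 0.139). Over all tested members, the median was 0.942 reads per kb per M at day 28 and 0.400 at day 0, against 1.08 and 0.864 over all genes tested.

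By position the genes formed 16 groups separated by more than 1 Mb, and the share that rose differed between them. Over all genes tested 28.6% were called higher and 26.6% lower. In the group between 11483682 and 12629260, that of ZNF69 and ZNF44, all 20 tested of 25 genes rose, with a median of 1.45 and a range of 0.63 (ZNF653) to 4.29, and 16 of the 20 had no overlap between the days. Of the 2 other genes tested within the same stretch, 0 rose and 1 fell. Under quantile scaling 13 of the 20 were called. A minimum of 50 reads left 9 to test, of which 9 rose, and spans of highest exonic share left 10, of which 8 rose. In the group nearest the centromere, 19668964 to 24127980, 19 of 30 tested rose and 0 fell, with a median of 1.01.

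On the long arm, 14 of 23 rose and 1 fell between 36182466 and 37773729 (median 0.90), led by ZNF793 at 2.02 ± 0.28 (limma adjusted p = 2.00e-04). Between 43526492 and 45076373, 12 of 21 rose and 1, ZNF576, fell (median 0.70), while of 16 other genes tested there 3 rose and 3 fell (median -0.24). ZNF235 led that group at 1.76 ± 0.34, with 17.9% of its span opposite other genes, and stood at 1.12 over its span of highest exonic share. Between 51573330 and 53577952, 15 of 35 rose and 0 fell (median 0.71), led by ZNF528 at 1.97 ± 0.45. The largest group, 59 genes between 55479911 and 58480726, had the lowest median of those with 10 or more genes tested, 0.44, and 13 of 49 rose and 2 fell. The share that rose there was near the 28.6% of all genes tested, while the share that fell was below their 26.6%. ZNF547 led there at 1.77 ± 0.28, on a span wholly shared with another gene of the same strand.

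Between 7075075 and 9758689, 7 of 14 rose and 0 fell (median 0.61), led by ZNF177 at 2.04 ± 0.50, while of 28 other genes tested in that stretch 6 rose and 6 fell (median -0.09). Among the smaller groups, ZNF333 rose by 1.64 ± 0.28, ZNF302 by 1.38 ± 0.22 and ZNF780B 4.28-fold. Over its span of highest exonic share ZNF780B stood at 1.44 on the log2 scale. ZNF554, at 1.09 ± 0.41 (limma adjusted p = 0.0415), lost its call without either Day 0 G1 library, without either Day 28 G1 library and without Day 0 S clone 7 (0.82 to 1.08). Differences between groups were not tested, and their spans differed too, with medians of 34.3 kb near the centromere, 20.5 kb in the group of ZNF69 and 10.1 kb in the largest group.

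**Figure D3:**
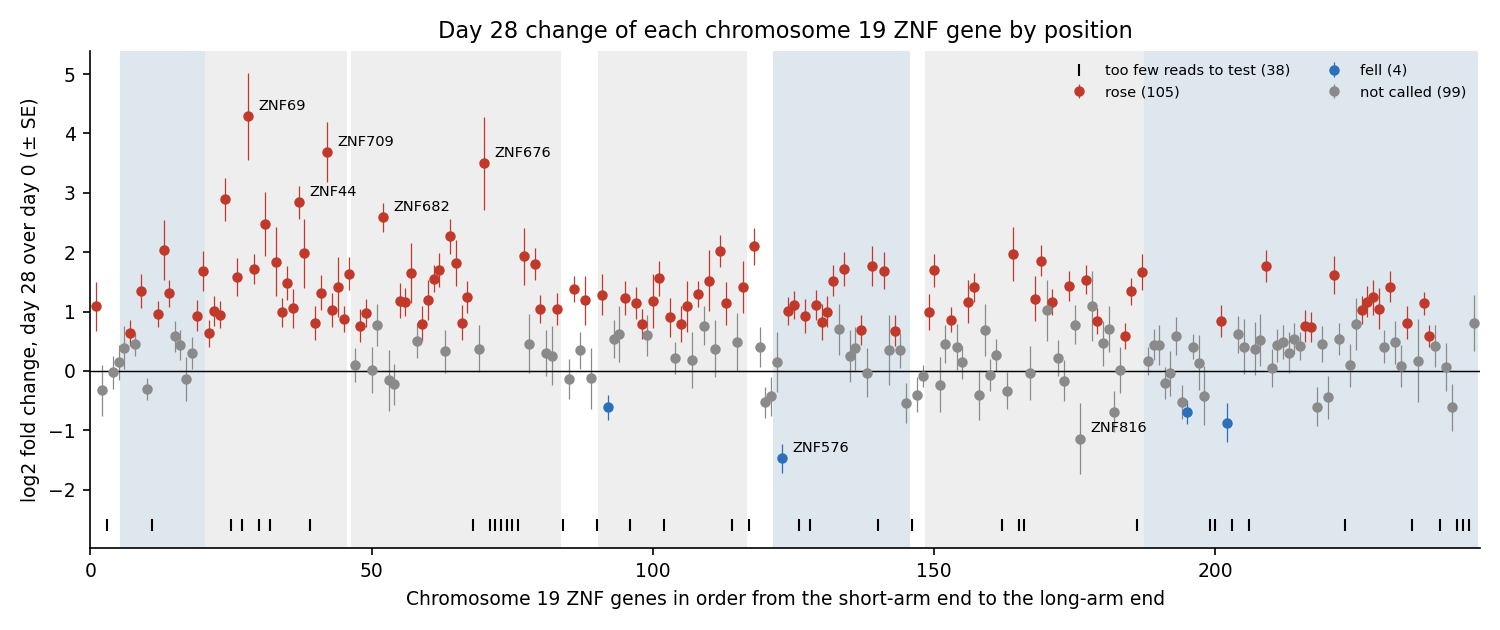
Log2 fold change of day 28 over day 0 with its SE (vertical axis) for each of the 208 tested genes in order along chromosome 19 (horizontal axis, short-arm end at the left), with marks below for the 38 genes with too few reads and shading for position groups of at least 10 genes. Red points rose (105), blue points fell (4) and grey points passed in neither direction (99); the group of ZNF69, ZNF709 and ZNF44 lies wholly above 0.

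Genes with a KRAB motif made up most of the members tested, 179 of 208, and most of those that rose. Over all genes tested 28.6% rose and 26.6% fell. Of 179 tested with the motif, 100 rose and 1 fell, with a median of 0.81. Of 29 tested without it, 5 rose and 3 fell, with a median of 0.17. The 5, listed after their values were seen, were ZNF345, ZNF358, ZNF428, ZNF653 and ZNF714. Median spans differed between these sets, at 15.3 kb with the motif and 3.18 kb without it. Of all genes with a span up to 10.9 kb, 16.4% rose and 37.7% fell. By finger number, 55 of 101 tested genes with 13 or more finger motifs rose (median 0.79), 43 of 88 with 7 to 12 (median 0.70) and 7 of 19 with 6 or fewer (median 0.45).

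The fold change was larger in genes of longer span, in this family and in all genes alike. Up to 10.9 kb, 25 of 70 tested members rose and 2 fell (median 0.47). Of all genes of that span 16.4% rose and 37.7% fell (median -0.40). Between 10.9 and 20.7 kb, 30 of 69 members rose and 1 fell (median 0.69), where 18.6% of all genes rose and 34.3% fell (median -0.28). Above 20.7 kb, 50 of 69 members rose and 1 fell (median 1.03). Of all genes of that span 31.6% rose and 21.3% fell (median 0.19), and of other chromosome 19 genes 35.7% and 21.6% (median 0.22). In each range the family's median thus lay above that of all genes, and Spearman's rho between span and fold change was 0.32 across the 208 genes and 0.37 across all genes tested, given as a description. After trends with span and exonic length over all genes were removed, 106 members rose and 2 fell, 98 of them among the 105, where 21.3% of all genes were called higher and 26.5% lower. After the olfactory receptor density was subtracted, 92 of the 105 were called and no further member, where 24.8% of all genes were called higher and 26.1% lower.

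**Figure D4:**
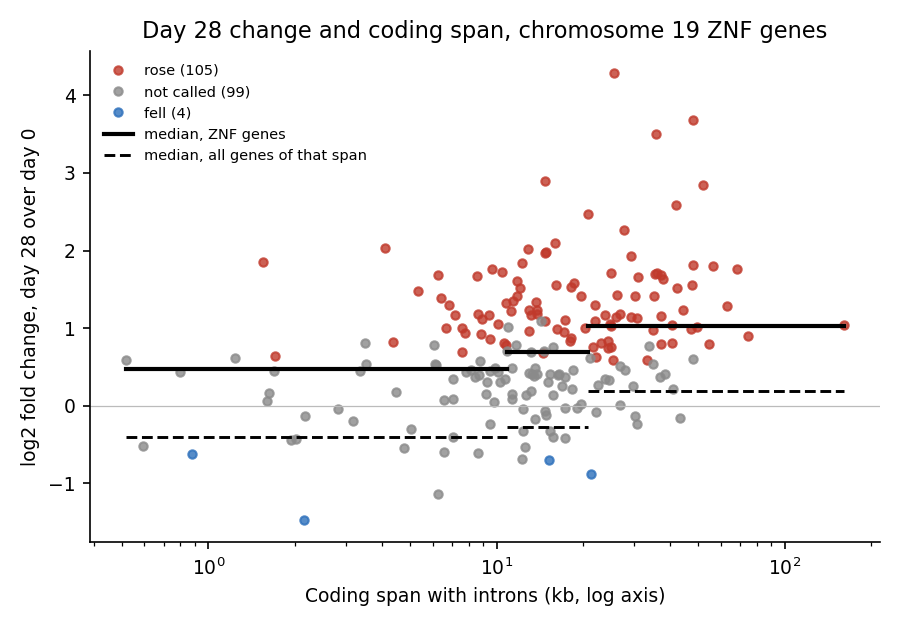
Log2 fold change of day 28 over day 0 (vertical axis) against coding span with introns (horizontal log axis, kb) for the 208 tested chromosome 19 ZNF genes, coloured by call. Solid lines give the family's median in 3 span ranges (0.47, 0.69 and 1.03) and dashed lines that of all genes tested of the same span (-0.40, -0.28 and 0.19).

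Where each gene was read over its coding span of highest exonic share, 56 of 152 tested members rose and 4 fell, with a median of 0.59, where 20.1% of all genes were called higher and 31.4% lower and the median of all genes was -0.26. Reads from exons were separated from the rest of the span where an alternative coding transcript allowed it, a step added after the data were seen. For 31 members a nested coding span of at least 90% exonic sequence existed, and 19 of these had enough reads there. In this exon-rich part 8 of 19 rose and 1 fell (median 0.85), where 13.1% of all genes with such a part were called higher and 28.3% lower. In the rest of the span, mostly intron, 16 of 24 rose and 0 fell (median 1.19), against 34.0% higher and 14.0% lower among all genes. In other genes the exon-rich part had a median of -0.37 and the rest 0.26.

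ZNF682 rose as much in its exon-rich part, 2.63 ± 0.28, as in the rest, 2.50 ± 0.29, with a difference of 0.12 ± 0.30 (limma adjusted p = 0.810). ZNF493, ZNF780B, ZNF345, ZNF841, ZNF875, ZNF600 and ZNF529 also rose in the exon-rich part, by 1.13 to 2.78, and these genes are named after their values were seen. ZNF254 by contrast stood at 0.41 ± 0.31 in the exon-rich part and 1.96 ± 0.40 in the rest, a difference of -1.55 ± 0.36 (limma adjusted p = 0.0239). Of 17 members tested for that difference, 14 lay below 0 (median -0.35) and 4 were called lower in the exon-rich part, namely ZNF253, ZNF254, ZNF420 and ZNF550. Other genes showed much the same, with 229 of 310 below 0 (median -0.34), 39 called lower and 5 higher. Of all 327 genes 14.7% were called in either direction. Among the 15 tested members whose whole span was at least 75% exonic, 3 rose (ZNF358, ZNF793 and ZNF83) and 1 fell, with a median of 0.44, where 133 of 848 such genes rose, 289 fell and the median was -0.40. ZNF83, named after its value was seen and with a span that is 100% exonic, averaged 12.04 ± 0.67 (SD, n = 4) at day 28 and 10.14 ± 0.11 (SD, n = 5) at day 0.

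**Figure D5:**
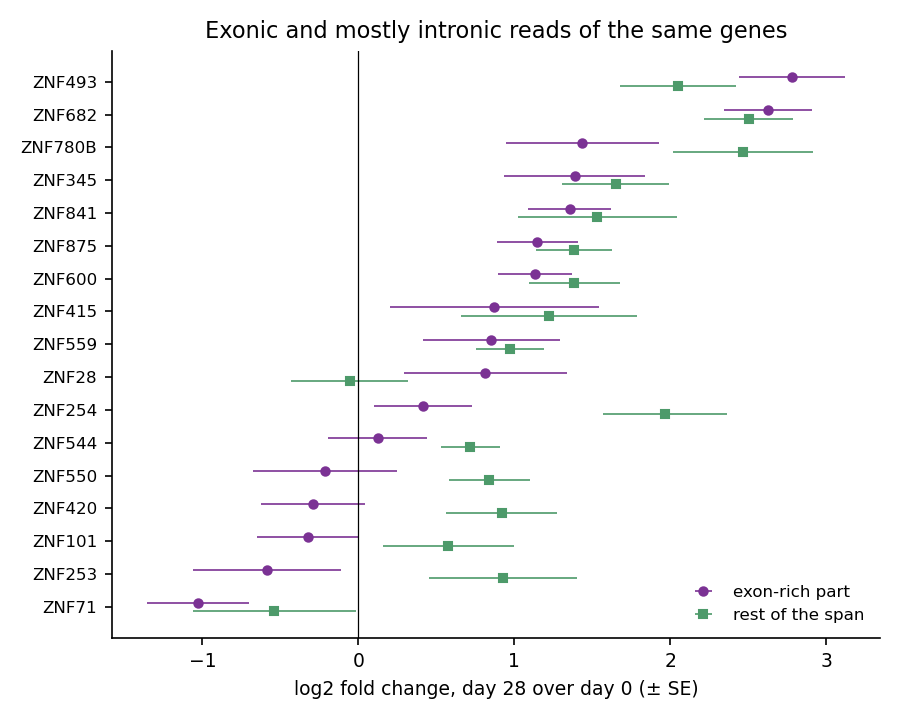
Log2 fold change of day 28 over day 0 with its SE (horizontal axis) in the exon-rich part (purple circles) and in the rest of the span (green squares) of 17 chromosome 19 ZNF genes (vertical axis) with enough reads in both. ZNF682 and ZNF493 lie to the right of 2 in both parts, while ZNF254, ZNF420 and ZNF253 lie above 0 in the rest and near or below it in the exon-rich part.

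In G1, the phase with a pair of libraries on each day, 63 of 208 members were higher at day 28 and 3 lower, with a median of 0.80. Over all genes 19.8% were called higher and 19.1% lower in this comparison. ZNF44 stood at 3.45 and ZNF441 at 3.54 in G1 (limma adjusted p = 0.00234 and 0.00305). With clone as a replicate block, 76 were higher and 6 lower in G1. The count fell to 15 without Day 28 G1 clone 1 and to 36 without Day 28 G1 clone 7. Whether the day 28 difference depended on phase was tested in a model with 1 further term for S and G2. In it 0 members passed, as 0.0% of all genes did. In limma 8 members had an unadjusted p under 0.05, against 1382 of the 12391 genes. In voom 12 members did, and voom called 0 as well.

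Few members were called between phases, and few of all genes were. Between S and G1, 0 members passed, where 0.573% of all genes were called higher and 0.0404% lower. In limma 16 members had an unadjusted p under 0.05 (5 higher and 11 lower), against 1587 of the 12391 genes (782 higher and 805 lower). Members tended to lie lower in S, with a median difference of -0.15 and 63 of 208 above 0, against -0.03 over all genes. The median was -0.44 in clone 7 at day 0 (48 of 208 higher in S), -0.33 in clone 1 at day 28 (60 higher) and -0.01 in clone 1 at day 0 (102 higher). In clone 1 the median difference of G2 from G1 was 0.12 at day 0 (127 of 208 higher in G2) and -0.34 at day 28 (67 higher). Between G2 and G1, 1 member passed, where 1.61% of all genes were called higher and 0.638% lower. That was ZNF850, which encodes 29 finger motifs and stood at 11.33 (day 28) and 10.40 (day 0) in G2, against 8.87 and 8.45 (day 28) and 8.03 and 9.12 (day 0) in G1. Both G2 values lay above all G1 values, with a difference of 2.25 ± 0.44 (limma adjusted p = 0.0224). With the clone as a term the call ended and 0 members passed. The call also ended without Day 0 G2, without Day 28 G2 and without either Day 28 G1 library, which leaves it resting on few libraries, and 18.2% of its span lies opposite ZNF567.

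Clone 7 tended to lie below clone 1. In a model with clone, day and phase 0 members passed, where 0.387% of all genes were called higher and 0.226% lower. In limma 34 members had an unadjusted p under 0.05, all 34 lower in clone 7. Of the 12391 genes 1937 had such a p, 1115 of them higher and 822 lower. The median difference of the members was -0.33, and 38 of 208 lay above 0, against a median of 0.02 over all genes. Pair by pair the median was -0.49 in G1 at day 28 (36 of 208 higher in clone 7), -0.44 in S at day 0 (29 higher) and -0.04 in G1 at day 0 (101 higher). With clone 1 alone, 93 members rose at day 28 and 4 fell, with a median of 0.67. With clone as a replicate block 103 rose and 5 fell, also with a median of 0.67. Both medians lay below the 0.76 of the fit without a clone term.

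The partners through which KRAB zinc finger proteins act fell more often than they rose. Of 30 genes of the corepressor and its silencing partners, all tested, 4 rose and 16 fell, with a median of -0.56, where 28.6% of all genes rose and 26.6% fell. Among the 30 are TRIM28, SETDB1, ATF7IP, CBX1, CBX3, CBX5, CHD3, CHD4, HDAC1, HDAC2, MBD3, MTA2, RBBP4, RBBP7, SUMO2, MPHOSPH8, TASOR, PPHLN1, MORC2, ATRX, DAXX, SUV39H1, SUV39H2, EHMT1, EHMT2, DNMT1, UHRF1 and SMARCAD1. All 16 that fell lay below the day 0 range in both G1 libraries of day 28, 9 of them also in S and G2, while 7 had an S or a G2 value within that range. TRIM28, the corepressor that KRAB domains bind, averaged 14.95 ± 0.58 (SD, n = 4) at day 28 and 15.66 ± 0.22 (SD, n = 5) at day 0 and fell by 0.64 on the log2 scale (± 0.22 SE, limma adjusted p = 0.0253). Its day 28 values in S and G2, 15.46 and 15.44, lay within the day 0 range, and those in G1, 14.48 and 14.42, below it. The heterochromatin protein 1 genes CBX5, CBX1 and CBX3 stood at -1.22, -1.20 and -1.13, and the deacetylases HDAC1 and HDAC2 at -0.92 and -0.63, all called lower. CBX5 had 9.34 and 9.05 in G1, 11.30 in S and 11.50 in G2 at day 28, against 10.97 to 12.45 at day 0, with S and G2 within the day 0 range, and CBX1 too had its S and G2 values within its own. SUV39H1, a histone methyltransferase of heterochromatin, stood at -1.64, UHRF1, which guides maintenance DNA methylation, at -1.70 and SUMO2, a SUMO modifier, at -1.62, also called lower. The day 28 value of SUV39H1 in G2, 9.62, lay within its day 0 range.

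The 4 partners that rose were ATF7IP, which stabilises SETDB1, at 0.87 ± 0.20 (limma adjusted p = 0.00383), the chromatin remodellers ATRX at 0.87 ± 0.29 and SMARCAD1 at 0.67 ± 0.23, and MPHOSPH8 of the HUSH silencing complex at 0.81 ± 0.23. SETDB1 itself stood at 0.44 ± 0.23 (limma adjusted p = 0.127). TASOR and PPHLN1, the other HUSH subunits, stood at -0.19 and 0.48 and passed in neither direction.

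The 38 members with too few reads for the test include 9 (23.7%) whose 4 day 28 values all lay above the 5 day 0 values and 0 with the reverse. Of all 8051 genes not tested, 10.8% lay above and 1.03% below in this way. In all, 87 of 246 members (35.4%) lay above without overlap, against 16.9% of all genes in the file. Among the 9, named after their values were seen, ZNF208 had 193, 151, 167 and 316 reads at day 28 in G1 (clones 1 and 7), S and G2, against 21, 0, 5, 0 and 10 reads at day 0. ZNF442, in the group of ZNF69, had 55, 96, 51 and 241 reads at day 28 and 0 to 31 at day 0. Leaving aside the 39 members that overlap another coding span of the same strand and those that share at least 20% of their coding 75-base stretches with a gene elsewhere, 81 of 170 tested members rose and 3 fell, with a median of 0.70.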

How the data were processed

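Libraries were grouped by the day, sorted phase and clone in the labels. The submitters' processing notes name HISAT2 (version 2.1.0), the build GRCh38 and DESeq2 (no version); the counter and the scaling are not given in the sources used here. The deposited values are log2 values for 80037 coding transcripts. The lowest value of each library, held by 8.74% to 19.7% of transcripts, was taken as an entry for no read at a fixed fraction of 1 read. On that assumption each higher value is log2 of whole reads over a coding span times 1 factor per library. Checked on the values, 100% up to 1000 reads came out whole within 0.05 of a read, with those lowest entries set to 0. In the main fit they stayed at their lowest value, which was higher in libraries of lower depth.

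For each gene the transcript with the highest mean was kept. limma 3.58.1 in R 4.3.3 (lmFit, eBayes with trend) was run on log2(normalised reads + 1) for 12391 genes whose mean reached 10 reads in the shallowest library, with day and phase as terms, and p-values were adjusted by Benjamini-Hochberg over all of them. Fold changes on this scale understate changes of genes with few reads. Called means an adjusted p under 0.05. Because introns are counted, exonic share, finger and KRAB motifs and shared 75-base stretches were taken from GENCODE v29 transcripts, and promoters from RefSeq (GRCh38.p14). The fit was tested on simulated data. Precision follows depth, and the shallowest library held 8.83 M recovered reads.

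Named were the up to 8 steepest called members each way with 1 direction in all 4 matched pairs, the 3 nearest to 0, the 3 highest per kb at day 0, members called between phases or clones, leaders of position groups and 7 members of known function. The members, lists and groups were chosen with earlier results of these data known. Some genes of the list of KRAB partners are not reported here by name. Deviations of the clones from their group means correlated at 0.653 between G1 and S of day 0. Between day 28 G1 and day 0 the correlation was 0.115 with G1 and 0.296 with S. Clone thus pairs the day 0 libraries, and pairs libraries of different days only weakly. The fit reported has no clone term, and the fit with clone as a block is an alternative, given beside a result where it changes a call. Alternatives were other scalings, filters, pseudocounts, voom on the recovered reads, the clone as a block, each library left out, clone 1 alone, background subtraction, removal of length trends, spans of highest exonic share and, added later, parts of spans and members without overlap.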

Additional observations from a re-analysis of the deposited data

How the results depend on the processing

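The rise of the chromosome 19 ZNF genes at day 28 kept its direction in every setting tried, with 56 to 107 called higher. No filter left 107 higher of 246 tested, the clone as a replicate block 103 and voom 104. Quantile scaling gave 68 higher and 12 lower, spans of highest exonic share gave 56 higher of 152 tested, and removal of length trends gave 2 lower; why these differ was not tested, beyond the 56 being drawn from fewer genes. With each library left out in turn, 75 to 101 were higher and 2 to 4 lower. In G1 those fits gave 15 to 64 higher and 0 to 4 lower, between S and G1 0 higher and 0 to 2 lower, between G2 and G1 0 to 3 higher and 0 to 3 lower, between the clones 0 higher and 0 to 5 lower, and for day by phase 0. Voom and the replicate block by clone gave 6 lower each in G1. With no filter, 2 were higher between G2 and G1 and 1 lower between the clones. With the replicate block 0 were higher between G2 and G1, and beside the G1 count above it moved no other count of calls by over 1.5 times.

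Signs turned mainly in the 3 genes chosen for lying nearest to 0. ZNF253 was at -0.019 under median-of-ratios scaling, -0.026 in voom, -0.13 with the replicate block, -0.046 after background subtraction, -0.42 under quantile scaling, and -0.59 both over its span of highest exonic share and in its exon-rich part. ZNF525 was at -0.017 under median-of-ratios scaling, -0.14 with the replicate block, -0.047 after removal of length trends, -0.037 over its span of highest exonic share and -0.14 under quantile scaling. With 1 library left out, ZNF253 ranged from -0.27 to 0.40, ZNF525 from -0.44 to 0.40 and ZNF57 from -0.11 to 0.11. After removal of length trends ZNF57 was at 0.18 and ZNF581 at 0.0046. ZNF274 was at -0.93 over its span of highest exonic share; the cause was not tested.

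Depth limits the genes with few reads, above all in Day 0 G1 clone 7, and 38 members could not be tested for that reason. A member that was not called is not shown to be unchanged.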
